A study of Mus musculus with 2 samples.

Results

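Zfhx3-rich GABAergic nuclei were a small set of inhibitory neuron nuclei in single-nucleus RNA profiles of mouse hippocampal tissue. A nucleus was a member when its Gad1, Gad2 and Slc32a1 molecules summed to at least 3 unique molecular identifiers (UMIs, each standing for 1 captured RNA molecule) and it held at least 5 Zfhx3 UMIs. It also had to lack any UMI of Lhx6, Zic1, Prdm16 and Drd3. At most 1 Rarb UMI and at most 4 Adarb2 UMIs were allowed. These limits were meant to leave out the common cortical, septal-type and striatal-type GABAergic nuclei. In all, 65 of 25957 nuclei met these criteria, 61 in one library and 4 in the other. The members were thus selected on the counts of these 10 genes, which are given below as a description.

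The series compared a library labelled as Bcas2 knockdown with a control library, 1 library each. Both came from the hippocampus of mice with a floxed Bcas2 gene, according to the sample titles, although the genotype label of the control reads WT. Mice of the knockdown-labelled library received an AAV2/9 virus carrying Cre recombinase under a synapsin (Syn) promoter, which is active in neurons, and control mice received an AAV vehicle. The labels do not say how many mice were pooled, nor their age, and nuclei were stained with propidium iodide and sorted to remove debris before droplet capture with a 3′ kit. With 1 library in each group there is no spread between animals. No p-values are therefore given, and every interval below covers counting error only.

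GABAergic neurons make the inhibitory transmitter GABA with the glutamate decarboxylases encoded by Gad1 and Gad2 and load it into vesicles with the transporter encoded by Slc32a1. Zfhx3 encodes a large zinc finger and homeodomain transcription factor, best known for its part in circadian timing in the suprachiasmatic nucleus and present in many inhibitory neurons of the ventral forebrain. Meis2 encodes a homeodomain factor of the lateral ganglionic eminence lineage, which gives rise to striatal, amygdalar and olfactory inhibitory neurons. Bcas2, the gene targeted in the series, encodes a subunit of the Prp19 complex, which takes part in pre-mRNA splicing.

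The 2 libraries differed in make-up and depth. The knockdown-labelled library held 13429 nuclei that passed the filters, with a median of 6094 UMIs, and the control held 12528 nuclei with a median of 2577 UMIs. GABAergic nuclei were 15.8% of nuclei (2126 nuclei) in the first and 1.29% (161 nuclei) in the second, and the control was mostly oligodendrocyte nuclei (7798). The libraries shared 56 barcodes among all those deposited, 1 of which was a member in the knockdown-labelled library. What part dissection or sorting had in this gap was not tested.

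The shares of members among GABAergic nuclei had overlapping intervals, with 4 nuclei behind the control value. Members were 2.87% of GABAergic nuclei in the knockdown-labelled library (61 of 2126, exact Clopper-Pearson 95% interval 2.20 to 3.67%) and 2.48% in the control (4 of 161, 0.681 to 6.24%), and the interval of the first lay inside that of the second. The control value moved with the criteria, to 4.35% with at least 3 Zfhx3 UMIs, 1.24% with at least 8, 5.59% without the Adarb2 limit, and 0% both after thinning to 3000 UMIs and without nuclei carrying RNA of another class. The same settings gave 3.53%, 1.74%, 4.33%, 1.63% and 2.87% in the knockdown-labelled library, so the order of the libraries turned with at least 3 Zfhx3 UMIs and without the Adarb2 limit. Measured among all nuclei, the shares were 0.454% (0.348 to 0.583%) and 0.0319% (0.00870 to 0.0817%), and these intervals did not overlap. The share among all nuclei moved with the share of GABAergic nuclei in each library.

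Most Zfhx3-positive GABAergic nuclei were removed by the septal-type criteria. Of 2126 GABAergic nuclei of the knockdown-labelled library, 380 held at least 5 Zfhx3 UMIs. Of these, 232 (61.1%) held a Zic1 UMI and 227 (59.7%) a Prdm16 UMI, while 75 (19.7%) exceeded the Adarb2 limit and 24 (6.32%) the Rarb limit. The Adarb2 limit alone removed 31 nuclei, so without it the set would hold 92 nuclei (4.33% of GABAergic nuclei). In the control, 29 of 161 GABAergic nuclei held at least 5 Zfhx3 UMIs, of which 15 (51.7%) held a Zic1 UMI.

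The Zfhx3 threshold crossed a continuous range. In the knockdown-labelled library, 6 members held exactly 5 Zfhx3 UMIs, 10 held 6 and 8 held 7, while 10 nuclei that met every other criterion held 4 and another 4 held 3. Baiap3 was found in 4 of the 6 members at 5 UMIs and in 9 of the 10 nuclei at 4 UMIs. Meis2 was found in 5 of those 6 members and in 2 of those 10 nuclei. At the Adarb2 limit, 7 members held 4 UMIs and 2 nuclei just outside held 5.

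The members were deep nuclei. The 61 nuclei of the knockdown-labelled library held 578147 UMIs in all, with a lowest value of 4086, a median of 8829 and a highest value of 25140 per nucleus, close to the median of 8612 in the other 2065 GABAergic nuclei. The 4 control members held 2950, 6782, 7595 and 9867 UMIs, 27194 in all. A count of 3 UMIs, used as the limit that a count of 0 allows, corresponded to 5.19 CPM (a gene's UMIs scaled to the total of its set) in the members of the first library and to 110 CPM in those of the second. The control members therefore give values for abundant genes alone.

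Zfhx3 itself ranged from 5 to 32 UMIs per member, with a median of 8, in the knockdown-labelled library. Gad2 was found in 56 of 61 members (median 3 UMIs, highest 16), Gad1 in 46 (median 2, highest 8) and Slc32a1 in 35 (median 1, highest 4). All 3 GABA genes were thus present across the set, and Gad2 was the most often detected. Gad1 stood at 214 CPM (178 to 256) against 307 CPM in the other GABAergic nuclei, and Gad2 at 391 CPM (342 to 445) against 317 CPM. Both are genes of the rule, and these values are a description.

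Meis2, listed as a marker of these nuclei, was found in 30 of 61 members (49.2%), with a lowest value of 0 and a highest of 25 UMIs. Where it was found, its median was 8 UMIs, and 27 of the 30 nuclei held at least 3, so the members fell into nuclei with plentiful Meis2 and nuclei with none. The summed level was 464 CPM (410 to 523), against 598 CPM in GABAergic nuclei with Zic1 or Prdm16, 1222 CPM in those with Rarb and 44.3 CPM in those with Lhx6. A Meis2 UMI was also present in 18.4% of oligodendrocyte nuclei, at a median depth of 2028.5 UMIs. Meis2 was thus not a general marker of the set.

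**Figure D1:**
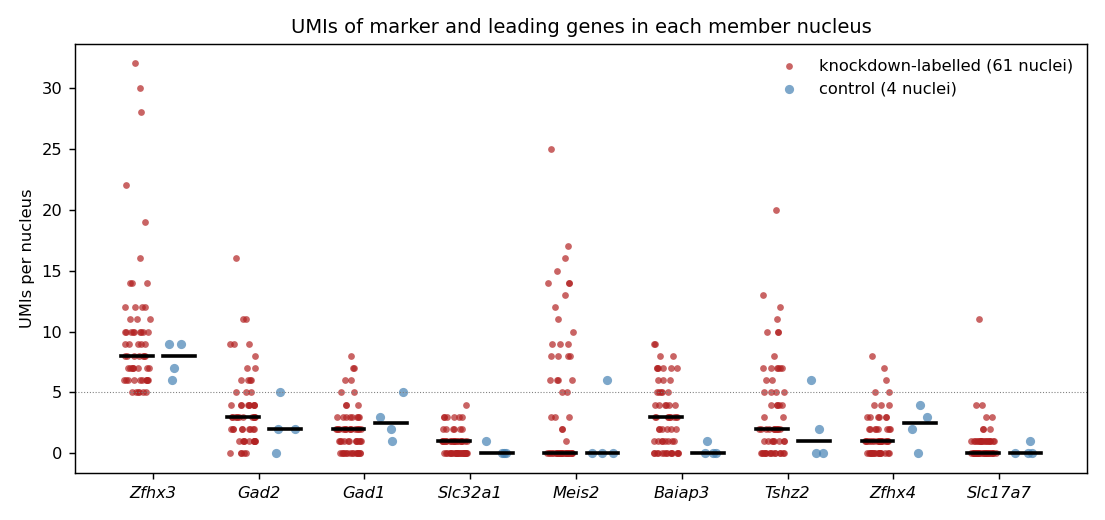
UMIs per nucleus (vertical axis) of the rule and marker genes, leading genes and the excitatory gene Slc17a7, with 1 point per member nucleus; black lines are medians and the dotted line is the Zfhx3 minimum of 5 UMIs. Zfhx3 runs from 5 to 32 UMIs in the 61 nuclei of the knockdown-labelled library, while Meis2 splits into nuclei at 0 and nuclei with up to 25.

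The label calls the nuclei subcortical, and the regional marker lists did not single out 1 region. Markers of intercalated amygdala, a list that holds Meis2, summed to 846 CPM against 721 CPM in other GABAergic nuclei, with a median of 450 CPM per member. Of the 61 members, 9 held none of these 6 markers and 12 held at least 3. Markers of lateral septum summed to 519 CPM against 894 CPM, with a median of 320 CPM, and 8 members held none and 8 at least 3. Most members thus held some marker of these lists and few held several. The septal list holds Zic2, Zic4 and Zic5, and the rule left out nuclei with Zic1 or Prdm16. Its lower sum in members was thus partly set by the rule. Markers of the thalamic reticular nucleus summed to 154 CPM against 86.5 CPM, with 21 members holding none and 4 at least 3. Of 12 hypothalamic markers, 8 were at 0 in the 61 members, Sim1, Otp, Hmx2 and Hmx3 among them, and 51 members held none of the 12. Of 8 markers of ventral thalamus, zona incerta and pretectum, each had a UMI but 1 reached 5% of members, and 49 members held none. Of 8 markers of central amygdala and bed nucleus, Calcrl and Cyp26b1 were at 0 and 37 members held none. Markers of medial amygdala and preoptic area summed to 173 CPM against 86.2 CPM in other GABAergic nuclei, and 26 members held none. The median member held 0 CPM of the hypothalamic, ventral thalamic and central amygdalar lists and 89.3 CPM of the medial amygdalar list. Of 8 striatal medium spiny neuron markers, 6 had a UMI, and Ppp1r1b and Adora2a were at 0. They summed to 882 CPM against 1151 CPM, 4 members held none and 23 held at least 3. The rule limits Rarb, and Adora2a stood at 66.8 CPM in GABAergic nuclei with Rarb. The lower sum of this list was thus also partly set by the rule. The set is therefore described by its rule and leading genes, and no region is assigned.

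RNA of other cell classes was present in the members at about the share seen in other GABAergic nuclei. In the knockdown-labelled library, 22 of 61 members (36.1%) held at least 2 Slc17a7 UMIs, 3 UMIs of oligodendrocyte genes, 3 Slc1a3 UMIs or 3 UMIs of microglial genes, against 36.1% of other GABAergic nuclei. Oligodendrocyte genes summed to 355 CPM in members and 339 CPM in other GABAergic nuclei, excitatory genes to 784 and 974 CPM, astrocyte genes to 251 and 192 CPM and microglial genes to 104 and 98.8 CPM. In the control, all 4 members met 1 of these criteria, against 87.9% of other GABAergic nuclei there. The oligodendrocyte genes of the control members summed to 1287 CPM. Doublet scoring marked 8 of 61 members (13.1%) in the first library, against 12.5% of its GABAergic nuclei, and 1 of 4 in the control.

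RNA of both sexes was present among the members. In the knockdown-labelled library, 24 members held UMIs of Xist, the RNA of the inactive X chromosome, without any of the Y-linked genes Ddx3y, Uty, Kdm5d and Eif2s3y, and 19 held Y-linked UMIs without Xist. Both were found in 17 members (27.9%), against 29.0% of other GABAergic nuclei. The mixed nuclei were thus as common among members as among other GABAergic nuclei. What part doublets or free RNA had in them was not tested.

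When all 2287 GABAergic nuclei were clustered without the 10 rule genes, the members gathered in 1 of 24 clusters. Cluster 8, of 291 nuclei, held 45 of the 65 members (69.2%), among them all 4 control members, and members were 15.5% of that cluster. Its leading genes over the median of the other clusters were Rmst, Klhl1, Sox6, Zfhx3, Dlk1, Gm32647, Rorb, Prlr and Baiap3, although Zfhx3 itself had no part in the clustering. The other 20 members were spread thinly. Clusters 0, 3, 9 and 19 held 3 each, clusters 5, 7 and 16 held 2 each and clusters 14 and 23 held 1 each.

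Clusters 3, 7 and 16, with 7 of the scattered members, had Prdm16 among their leading genes, and clusters 7 and 16 also Zic1. These are genes of the septal-type class, and the rule itself bars any UMI of either in a member. Clusters 0 and 14, with 3 members and 1, had Kcnmb2 among their leading genes, beside Lhx6 in cluster 0 and Sox6 and Pvalb in cluster 14. Other scattered members lay with RNA of other cell types. Cluster 19, where members were 17.6% of 17 nuclei, was led by astrocyte genes, cluster 9 by oligodendrocyte genes, and cluster 5 by genes that include the excitatory gene Slc17a7. Zfhx3 was also high in nuclei outside the set. Among nuclei that were not members it was highest in cluster 16 at 823 CPM (780 to 868), whose leading genes were Ano1, Prdm16 and Zic1, and it was 355 CPM (330 to 381) in cluster 8.

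**Figure D2:**
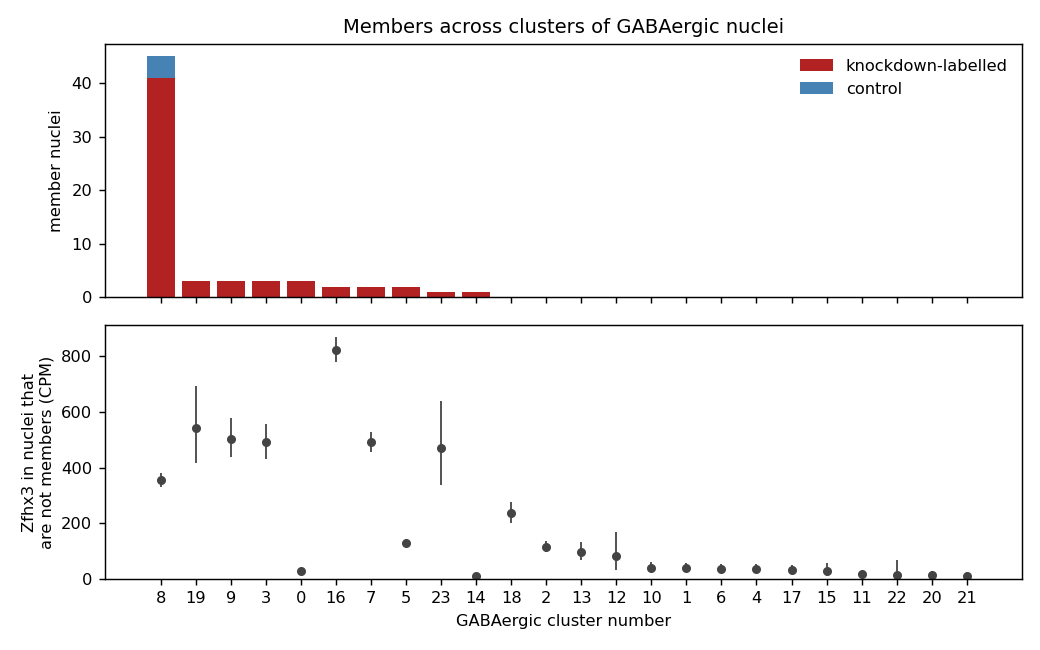
Member nuclei in each GABAergic cluster (upper axis, stacked by library) and Zfhx3 in the remaining nuclei of the same cluster (lower axis, CPM of summed UMIs with exact Poisson 95% intervals). Cluster 8 holds 45 of the 65 members, while non-member Zfhx3 is highest in cluster 16 at 823 CPM.

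Most of cluster 8 was not in the set, and much of it carried Zfhx3 at lower counts. In the knockdown-labelled library, 235 of its 276 nuclei were not members, of which 177 held fewer than 5 Zfhx3 UMIs, 107 exceeded the Adarb2 limit and 60 held a Zic1 UMI, with some failing more than 1 criterion. A Zfhx3 UMI was found in 136 of the 235 (57.9%), at a median depth of 7881 UMIs against 8200 in the 41 members of the cluster. The remaining nuclei of cluster 8 thus overlapped the members in Zfhx3 and in depth.

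Within cluster 8 the members and the remaining nuclei differed in few genes. Of 2157 genes with a mean of at least 100 CPM, 15 (0.695%) were at least 2-fold higher and 14 (0.649%) at least 2-fold lower in the 41 members. Baiap3 was 413 CPM (348 to 486) in these members and 269 CPM (247 to 292) in the remaining nuclei, and Tshz2 was 465 CPM (396 to 542) and 333 CPM (309 to 359). Both genes were therefore high through the whole cluster. Rmst, at 252 CPM (202 to 311) and 293 CPM (270 to 318), did not differ beyond counting error. The highest ratios belonged to Arhgap6, a GTPase-activating protein (log2 1.81, 1.50 to 2.11), the neuronal collagen Col25a1 (1.51, 1.23 to 1.78) and the phosphodiesterase Pde11a (1.45, 0.97 to 1.90). The lowest belonged to Cpne4, which encodes a copine (-1.77, -2.48 to -1.18), Pld5 (-1.51, -2.30 to -0.88) and Zfp804a (-1.47, -1.92 to -1.08).

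Zfhx3 was not restricted to neurons. Over 17 cell populations of the libraries with at least 20 nuclei each, its level was 1254 CPM (1220 to 1288) in control microglia, 1058 CPM (961 to 1162) in microglia of the knockdown-labelled library and 1050 CPM (968 to 1137) in the members of that library. The latter 2 did not differ beyond counting error, and the level of the members was set by the rule. Next came control nuclei with Zic1 or Prdm16 (708 CPM, 606 to 822), the same class in the other library (468 CPM, 450 to 488) and its astrocytes (465 CPM, 420 to 513), of which the last 2 overlapped. Nuclei with Adarb2 stood at 140 CPM, those with Rarb at 103 CPM, oligodendrocytes at 61.1 CPM and those with Lhx6 at 43.3 CPM in the knockdown-labelled library. Excitatory nuclei outside the dentate gyrus were lowest at 23.2 CPM (21.3 to 25.3).

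The genes whose level followed Zfhx3 most closely across these 17 populations were Ubap2l, Chd2, Trappc9, Tbl1x and Ttc28. Their Spearman correlations were 0.86, 0.84, 0.80, 0.78 and 0.78 over 2168 genes compared. Populations of 1 library share its depth and any free RNA, so these values are a description.

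Compared with the other 2065 GABAergic nuclei of the knockdown-labelled library, the members had their highest ratios in Baiap3, Rmst, Zfhx4 and Tshz2 and their lowest in Col19a1, Kcnmb2 and Zfp536. Of 2088 genes with a mean of at least 100 CPM over both sets, 18 (0.862%) were at least 2-fold higher and 32 (1.53%) at least 2-fold lower in members, and the median log2 ratio was 0.08. Scaling by trimmed means (TMM) moved all ratios by -0.16 and left 9 higher and 49 lower, so the split between higher and lower genes depends on the scaling. The rule keeps out nuclei with Lhx6 and limits Adarb2, so a low level of a gene shared with those classes is no finding of its own.

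Baiap3, which encodes a Munc13-family protein of dense-core vesicle recycling, led the higher genes. It ranged from 0 to 9 UMIs per member with a median of 3, was found in 47 of 61 members (77.0%) and in 30.4% of other GABAergic nuclei, and stood at 329 CPM (284 to 379) against 83.6 CPM (log2 1.98, 1.75 to 2.19). In the GABAergic classes with Lhx6, Adarb2, Zic1 or Prdm16, and Rarb it was 76.5, 77.7, 90.6 and 35.5 CPM. It was thus higher in members than in each of these, and a Baiap3 UMI was found in 1.60% of oligodendrocyte nuclei.

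Tshz2, encoding a teashirt zinc finger factor, ranged from 0 to 20 UMIs per member with a median of 2. It was found in 46 members, at 387 CPM (338 to 442) against 129 CPM (log2 1.59, 1.38 to 1.78). Zfhx4, the homologue of Zfhx3, was found in 43 members with a highest value of 8 UMIs, at 170 CPM (138 to 207) against 54.7 CPM (1.64, 1.32 to 1.93). Both factors were widespread in the set rather than carried by a few nuclei. Rmst, a long noncoding RNA linked to neurogenesis, was found in 25 members and reached 20 UMIs in 1 of them, at 194 CPM (160 to 233) against 61.7 CPM (1.66, 1.36 to 1.93). It was more unevenly spread, and 71.4% of astrocyte nuclei also held it.

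The remaining higher genes had various known roles. Efna5, which encodes the guidance ligand ephrin-A5, was found in 54 members at 514 CPM (457 to 576) against 215 CPM (log2 1.26, 1.08 to 1.43). Cdh4, encoding R-cadherin, stood at 190 CPM against 90.5 CPM (1.08, 0.78 to 1.35), Ptprk, encoding a receptor tyrosine phosphatase, at 280 against 129 CPM (1.13, 0.89 to 1.35), and Nell1, encoding a secreted protein, at 412 against 186 CPM (1.15, 0.95 to 1.33). Scn9a, the gene of the sodium channel Nav1.7, was found in 37 members at 147 CPM (117 to 182) against 71.8 CPM (1.04, 0.70 to 1.35). Camk2d, a calcium/calmodulin-dependent kinase subunit, stood at 547 against 270 CPM (1.02, 0.85 to 1.18), close to its 471 CPM in nuclei with Zic1 or Prdm16.

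The other named higher genes were Tmcc3, Eps8, Dpyd, Greb1l, Gm28905, Mgat4c, Pdzrn4, Thsd7b, Zkscan16 and Mest, with log2 ratios from 0.93 to 1.44. Of the 20 named higher genes, 16 stood above all 4 GABAergic classes beyond counting error. Gm28905 (164 CPM in members, 252 CPM with Rarb) was lower than 1 class, and Cdh4, Thsd7b and Mest did not differ beyond counting error from the nuclei with Rarb, with Adarb2 and with Zic1 or Prdm16, in that order. All 61 members, 41 of them in cluster 8, were also set against the nuclei most like them, the remaining nuclei of cluster 8. Of the 18 genes, 1 was counted as at least 2-fold higher, Zfhx4 (log2 1.01). Eps8 (1.92) was higher too, but its mean there lay under 100 CPM. Baiap3 was at 0.29 and Tshz2 at 0.22, Cdh4 (-0.0021) and Scn9a (-0.027) were level, and Rmst turned to -0.59. Of the 32 lower genes 1 was counted as at least 2-fold lower, Cpne4 (-1.54), and Kcnmb2 (-1.35) had a mean under 100 CPM. With the 41 members of cluster 8 alone, Greb1l was at 1.17, Zfhx4 at 1.15, Cpne4 at -1.77 and Tcf4 at -1.45. Baiap3 was then at 0.62 (0.35 to 0.89), Tshz2 at 0.48 (0.22 to 0.73) and Rmst at -0.21 (-0.56 to 0.11). Most of the 2-fold differences were therefore not present against the rest of cluster 8. In the control, where 4 members were set against 157 GABAergic nuclei, 9 of the 20 genes lay below the other GABAergic nuclei, Baiap3 and Rmst among them. Baiap3 was a single UMI in 1 of the 4 control members, at 36.8 CPM (0.931 to 205) against 93.9 CPM.

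**Figure D3:**
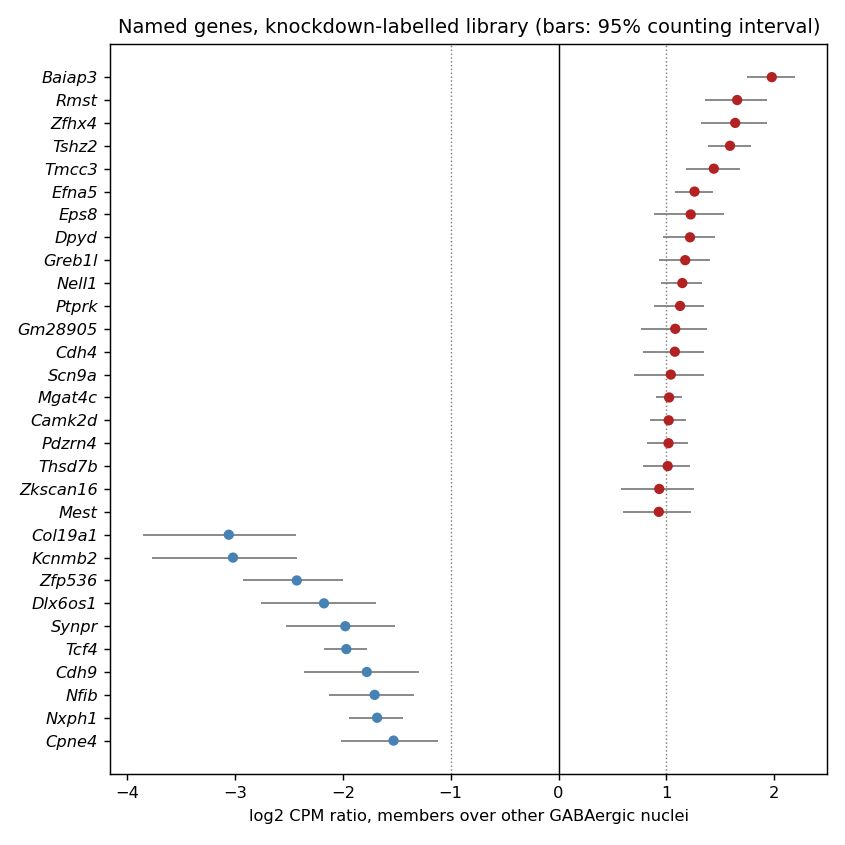
Log2 CPM ratio (horizontal axis) of the 20 highest and 10 lowest named genes in 61 members over 2065 other GABAergic nuclei of the knockdown-labelled library, with exact conditional 95% counting intervals as bars and dotted lines at 2-fold. Baiap3 stands highest at 1.98 and Col19a1 lowest at -3.06.

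Of the 10 named lower genes, 9 were highest, among the 4 GABAergic classes, in nuclei with Lhx6 or Adarb2. Col19a1, a collagen of interneurons, stood at 31.1 CPM (18.5 to 49.2) against 267 CPM (log2 -3.06, -3.85 to -2.44), and Kcnmb2, an auxiliary subunit of BK potassium channels, at 34.6 CPM (21.1 to 53.4) against 287 CPM (-3.02, -3.77 to -2.43). Both were high in nuclei with Lhx6, at 469 and 721 CPM, and low in nuclei with Zic1 or Prdm16, at 15.2 and 26.7 CPM. Their low level was therefore shared with the nuclei with Zic1 or Prdm16. Zfp536, Synpr, Cdh9, Nfib and Nxph1 had log2 ratios of -2.43, -1.98, -1.78, -1.71 and -1.68.

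Tcf4, Dlx6os1 and Cpne4 had lower values than all 4 GABAergic classes, and Dlx6os1 alone of the 10 lower genes was below each beyond counting error. Tcf4, a basic helix-loop-helix factor, was found in 46 of 61 members at 351 CPM (304 to 403) against 1378 CPM in other GABAergic nuclei (log2 -1.97, -2.18 to -1.77). It was 2214 CPM with Lhx6, 1774 CPM with Adarb2, 546 CPM with Zic1 or Prdm16 and 383 CPM with Rarb, and the last of these lay inside the members' interval. Dlx6os1, a noncoding RNA from the Dlx5 and Dlx6 locus that marks ganglionic eminence lineages, was found in 19 of 61 members at 53.6 CPM (36.4 to 76.1) and in 62.3% of other GABAergic nuclei at 246 CPM (-2.18, -2.76 to -1.69). Cpne4 stood at 74.4 CPM (53.8 to 100) against 217 CPM (-1.53, -2.02 to -1.11), with 89.7 CPM in nuclei with Rarb.

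**Figure D4:**
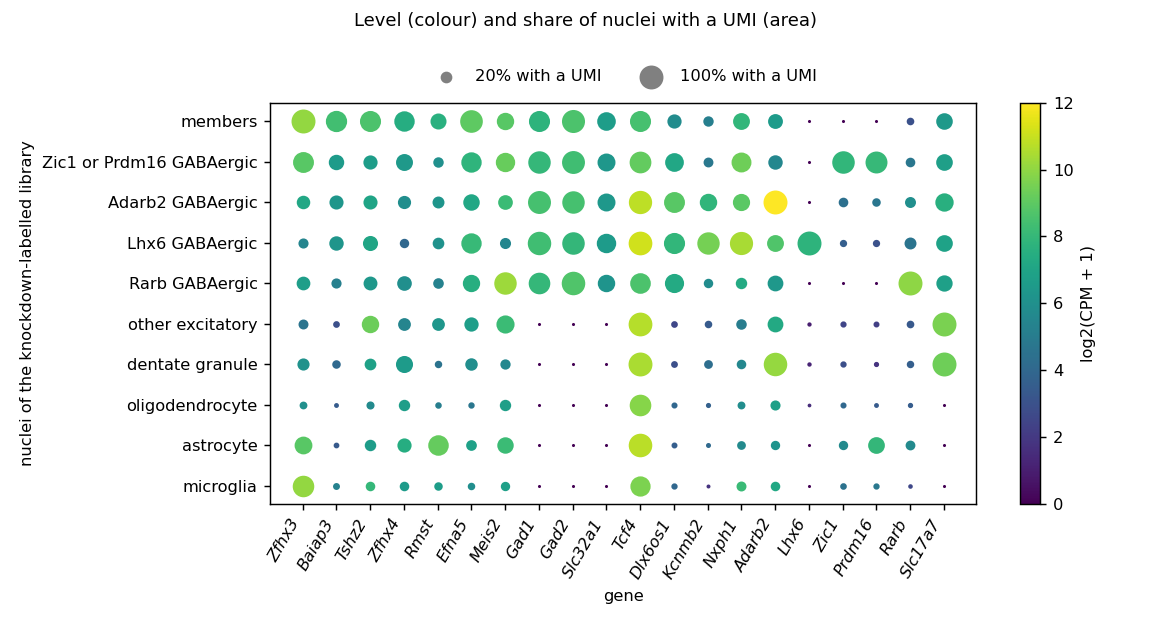
Level (colour, log2 of CPM + 1) and share of nuclei with a UMI (dot area) of named and marker genes in the members and 9 other populations of the knockdown-labelled library. Baiap3 is 329 CPM in members and at most 90.6 CPM in the other GABAergic classes, while Zfhx3 is also high in microglia at 1058 CPM.

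Among 40 transcription factors of inhibitory and forebrain neurons, 13 reached a mean of 100 CPM, of which 2 were at least 2-fold higher and 4 at least 2-fold lower, with a median log2 of -0.56 against 0.08 over all genes tested. That median was -0.17 with nuclei carrying RNA of another class left out and 0.10 against the remaining nuclei of cluster 8. With a mean of at least 20 CPM, 29 were tested, 6 were higher and 7 lower, against 1.47% and 1.56% of all 7800 genes. Rorb, encoding an orphan nuclear receptor, was found in 23 members at 130 CPM (102 to 163) against 28.7 CPM (log2 2.19, 1.81 to 2.53). A Rorb UMI was also found in 78.4% of astrocyte nuclei. Isl1, a LIM-homeodomain factor, was found in 18 members at 53.6 CPM (36.4 to 76.1) against 24.1 CPM.

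Some factors were confined to a few members. Lhx8, a factor of ventral forebrain and cholinergic lineages, was found in 8 members at 32.9 CPM (19.8 to 51.3) against 4.55 CPM, and in 0.178% of oligodendrocyte nuclei. Lhx1 was found in 6 members at 12.1 CPM (4.87 to 24.95) against 0.599 CPM, and Ebf1 in 5 members at 31.1 CPM (18.5 to 49.2) against 8.39 CPM. These are subsets of the set rather than features of all of it. Other factors were lower than in the remaining GABAergic nuclei, with Sox6 at 12.1 CPM (4.87 to 24.95) against 109 CPM, Satb1 at 19.0 against 66.2 CPM, Prox1 at 8.65 against 35.2 CPM and Npas1 at 3.46 against 23.1 CPM. Npas1 led clusters together with Adarb2, and Sox6 led clusters together with Sst or Pvalb. Sox6 was also a leading gene of cluster 8, at 166 CPM and in 23.7% of its nuclei. It led cluster 12 too, beside the precursor gene Pdgfra. The rule bars Lhx6 and limits Adarb2, so a low level of a gene shared with those classes is no finding of its own.

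No neuropeptide was found in most members. Of 20 peptide genes, 16 had a UMI and none reached a mean of 100 CPM. Cck was found in 18 members, Pnoc in 14, Sst in 9, Penk in 7, Nts in 6, Crh, Vip and Cartpt in 5 each and Gal in 4, while Npy was at 0, below the limit of 5.19 CPM that a count of 0 allows and against 20.7 CPM in other GABAergic nuclei. These counts may include free RNA, whose level was not measured. A Cck UMI was found in 12.8% of oligodendrocyte nuclei at 61.9 CPM against 31.1 CPM in members, and Sst in 6.75% at 34.2 CPM against 17.3 CPM in members, so neither is read as expression. Penk and Vip were likewise at 21.3 and 23.5 CPM in oligodendrocytes. The shares with a UMI were 6.56%, 8.20% and 9.84% of members for Gal, Crh and Nts, and 0.622%, 0.533% and 2.22% of oligodendrocyte nuclei. These shares were taken at unequal depth, at a median of 8829 UMIs against 2028.5. What part free RNA had in them was not tested. Of Gal, Crh, Nts, Penk and Sst, 23 members held at least 1 and 7 at least 2. Galanin RNA (Gal) stood at 19.0 CPM (9.50 to 34.0) against 2.90 CPM with a highest value of 6 UMIs, Crh at 19.0 CPM (9.50 to 34.0) against 5.30 CPM with a highest value of 5, and Nts at 27.7 CPM (15.8 to 44.9) against 11.0 CPM with a highest value of 9. Sst at 17.3 CPM (8.29 to 31.8) and Vip at 8.65 CPM (2.81 to 20.2) lay below the other GABAergic nuclei at 52.0 and 49.2 CPM. The rule bars Lhx6 and limits Adarb2, so these lower levels are no finding of their own.

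Of the hormone receptor genes, Prlr was more widely present. Prlr, the prolactin receptor, was found in 27 members (44.3%) at 133 CPM (105 to 166) against 43.2 CPM (log2 1.63, 1.27 to 1.96). In oligodendrocyte nuclei, at a median of 2028.5 UMIs against 8829, the share with a Prlr UMI was 2.93%. Esr1, the estrogen receptor alpha gene, was found in 8 members at 25.9 CPM (14.5 to 42.8) against 14.3 CPM, and Drd2 in 13 members at 32.9 CPM (19.8 to 51.3) against 17.4 CPM.

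Subunit genes of GABA-A and glycine receptors were tested next. Of 18 listed subunits, 9 reached 100 CPM and none passed 2-fold, with a median log2 of 0.24 against 0.08 over all genes, whereas at 20 CPM 15 were tested and 2 were at least 2-fold higher, against 1.47% of all genes at that minimum. The list's median was -0.02 against the remaining nuclei of cluster 8. The higher subunits were Gabrg1, the gamma 1 subunit (138 CPM, 110 to 172, against 55.5 CPM; 32 members), and Glra3, the glycine receptor alpha 3 subunit (81.3 CPM, 59.7 to 108, against 17.8 CPM; 20 members). Glra1 was found in 7 members at 17.3 CPM (8.29 to 31.8) against 2.80 CPM. Glycine receptor RNA was therefore found in a subset of the members.

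Excitatory receptor and ion channel genes were close to other GABAergic nuclei. Of 15 ionotropic glutamate receptor genes tested, none was 2-fold higher and 1 was lower, Grik1, a kainate receptor subunit, at 277 CPM (236 to 323) against 640 CPM. Over all genes tested, 0.862% were higher and 1.53% lower. Of 15 sodium, calcium and HCN channel genes tested, 1 was higher (Scn9a) and none lower, and of 17 potassium channel genes 1 was lower (Kcnmb2). The medians of these lists were -0.01, 0.05 and -0.15 on the log2 scale, near the 0.08 of all genes. None of 9 synaptic release genes passed 2-fold. Among 4 monoamine, acetylcholine and cannabinoid receptor genes tested, 2 were lower, Cnr1 at 65.7 CPM (46.5 to 90.2) against 135 CPM and Htr1f at 88.2 CPM (65.7 to 116) against 181 CPM, beside the 1.53% of all genes. At 20 CPM 12 of these receptor genes were tested and 3 were lower, with a median log2 of -0.03, against 1.56% of all genes.

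The members of the knockdown-labelled library were also split by Meis2. This split was chosen after its values were seen. The 30 members with a Meis2 UMI had a median of 9055 UMIs and 17 lay in cluster 8, and the 31 without had a median of 8251 and 24 lay in cluster 8. Of 2157 genes tested, 43 (1.99%) were at least 2-fold higher and 33 (1.53%) at least 2-fold lower with Meis2. For members against other GABAergic nuclei the shares were 0.862% and 1.53%.

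Higher with Meis2 were Ankfn1 (240 against 57.5 CPM, log2 2.03, 1.27 to 2.94), the astrocyte glutamate transporter gene Slc1a2 (220 against 57.5 CPM, 1.90, 1.13 to 2.82) and Cdh4 (287 against 86.3 CPM, 1.71, 1.07 to 2.45). Also higher was Arpp21, a cAMP-regulated phosphoprotein gene (687 against 226 CPM, 1.59, 1.19 to 2.03). In the same library Arpp21 was 1336 CPM in GABAergic nuclei with Rarb and 1370 CPM in excitatory nuclei outside the dentate gyrus. Pbx3, whose protein binds DNA with Meis factors, was 277 against 147 CPM (0.90, 0.35 to 1.49). The 3 members in the astrocyte-led cluster 19 all held Meis2, and the myelin gene Mbp was 43.3 CPM with Meis2 against 158 CPM without (-1.83, -2.88 to -0.95). The part of glial RNA in this split was not tested. Without Meis2, Rorb was 216 CPM against 50.0 CPM (-2.07, -3.03 to -1.27), Prlr 201 against 70.0 CPM (-1.50, -2.32 to -0.78) and Nxph1, encoding a neurexin ligand, 392 CPM (322 to 473) against 96.7 CPM (64.8 to 139). Rorb and Prlr, high in the set as a whole, therefore sat mainly in the nuclei with no Meis2. Baiap3, at 340 and 316 CPM, and Tshz2, at 363 and 413 CPM, did not differ beyond counting error, although Tshz2 was found in 17 of 30 nuclei with Meis2 and 29 of 31 without.

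Clustering the 65 members alone gave 8 groups of 3 to 13 nuclei, which are described by their leading genes and left unnamed. A group of 8 was led by the collagen gene Col8a1 and by Gal, another of 8 by Gm32647, Dgkk and Crh, and another of 8 by the chloride channel gene Ano2, Nts and Ano1. The last of these held the 7 members of clusters 3, 7 and 16. The peptide genes were found in a minority of the nuclei of their groups, Gal in 37.5%, Crh in 25% and Nts in 25%. A group of 13 was led by Glra1 and lay wholly in cluster 8, and a group of 12 was led by collagen genes with Ebf1 and Meis1 further down. A group of 4 was led by Otx2os1, of which 1 nucleus held 13 UMIs, and by Lmo2. A group of 9, with 3 of the 4 control members, was led by Ebf2, Calb2 and Ebf3 together with the myelin gene Mog. A group of 3 was led by astrocyte genes, Itih3 and Mertk among them, and these were the members of cluster 19.

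The 4 control members allowed few comparisons between the libraries. Their Zfhx3 counts were 6, 7, 9 and 9 UMIs, inside the range of the other library, and their Gad1 counts were 1, 2, 3 and 5. Gad2 was found in 3 of the 4, Slc32a1 and Meis2 in 1 each. Ebf2 was 14 UMIs in 1 nucleus and 0 in the other 3.

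Bcas2 was found in 21 of 61 knockdown-labelled members, with 36 UMIs at 62.3 CPM (43.6 to 86.2), and in 2 of 4 control members, with 2 UMIs at 73.5 CPM (8.91 to 266). The interval of the log2 ratio ran from -2.20 to 2.86, so no difference was detectable at this depth. Reads from a 3′ kit do not show whether a floxed part is missing, and the floxed part is not named in the labels, so this count does not check the labels. The series title names BDNF and TrkB. Bdnf was 10 UMIs in 9 knockdown-labelled members and 0 in the control members, under the limit of 110 CPM. Ntrk2, the gene of TrkB, was found in 58 members at 626 CPM (563 to 694) and in 3 of 4 control members at 662 CPM (392 to 1046), a log2 ratio of -0.12 (-0.76 to 0.69).

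Over all genes the comparison of libraries rested on very few control UMIs and is read as no result. Of 2167 genes tested, 155 (7.15%) were at least 2-fold higher and 493 (22.8%) at least 2-fold lower in the knockdown-labelled members, with a median log2 of -0.35, and TMM scaling turned this to 371 higher and 212 lower with a shift of 0.51. At 100 CPM, 2.72 UMIs are expected in the 4 control members against 57.8 in the other 61. In the control members, 504 of the genes (23.3%) had at most 3 UMIs. The oligodendrocyte and microglial RNA of the control members, at 1287 and 846 CPM against 355 and 104 CPM, moved with the same comparison, and its part in the counts was not tested.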

How the data were processed

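Both libraries were deposited as raw UMI counts per gene and barcode. Per the file headers, Cell Ranger 9.0.1 wrote the matrices. The submitters' processing notes name bcl2fastq 5.0.1, Seurat 4.1.0 and the GRCm39 build. The labels give an expected capture of 8000 nuclei and at least 20000 reads per nucleus. The deposited counts hold 16693 barcodes and 90594923 UMIs (knockdown-labelled) and 12621 barcodes and 41781481 UMIs (control). A barcode was kept if it reached 500 genes and 800 UMIs and its mitochondrial share lay below 5%.

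Comparison classes were GABAergic nuclei with at least 2 Lhx6 UMIs, with no Lhx6 and at least 8 Adarb2 UMIs, with no Lhx6, at most 4 Adarb2 and at least 2 UMIs of Zic1 and Prdm16, or with no Lhx6, Zic1 or Prdm16, at most 4 Adarb2 and at least 3 Rarb UMIs. Glial and excitatory classes were nuclei with no GABA gene UMI that held 10 UMIs of myelin genes, 5 of Slc1a3, Aqp4 and Gja1, 3 of the microglial genes, or 3 of Slc17a7 or Prox1. The names of the classes rest on these counts alone.

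UMIs were summed over nuclei of a set and divided by the set's total (CPM). Log2 ratios added 0.5 UMI. Levels have exact Poisson intervals, ratios exact conditional binomial intervals and shares Clopper-Pearson intervals, all at 95% and covering counting error only. Genes needed a mean of 100 CPM over both sets, and the 10 rule genes (the design had counted 9), mitochondrial and sex-linked genes were left out. Named genes were the 20 highest and 10 lowest ratios among genes found in at least 20% of nuclei of the set where higher. For the comparison of libraries and the groups of members, named genes followed rules on size with a minimum level or share of nuclei; those between libraries are not printed, since they rest on few control UMIs. The members, the 19 gene lists and these rules were chosen with earlier results of these data known. Genes named outside the rules (within cluster 8, in the Meis2 split and the imprinted genes) were chosen after their values were seen.

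GABAergic nuclei were clustered on 2000 variable genes, 30 components and 15 neighbours (Leiden, resolution 1; scanpy 1.11.5, igraph 0.11.9). Doublets were scored with Scrublet and kept, then left out as an alternative. Its automatic threshold marked 7.80% of knockdown-labelled nuclei. For control nuclei it marked 22.7%, so the top scores at the expected rate of 10.0% were taken instead. TMM factors came from edgeR 4.0.16 in R 4.3.3, other steps from Python 3.11.15, numpy 2.4.6, scipy 1.17.1 and pandas 2.3.3. The ratio code was tested on simulated data. No test across samples was run, since each group has 1 library. Alternatives were scaling, expression minimum, per-nucleus means, depth thinning, doublets, stricter filters and other Zfhx3 minimums. Results for some genes are not reported here.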

Additional observations from a re-analysis of the deposited data

How the results depend on the processing

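No paired analysis was possible because each group has 1 library and no result comes from a test. The share of members among GABAergic nuclei, 2.87% and 2.48%, moved to 1.74% with at least 8 Zfhx3 UMIs, 1.63% with nuclei thinned to 3000 UMIs and 4.33% without the Adarb2 limit in the knockdown-labelled library. In the control it became 0% after thinning and 0% without nuclei carrying RNA of another class, 5.59% without the Adarb2 limit, 4.35% with at least 3 Zfhx3 UMIs and 1.24% with at least 8. The counts of genes at least 2-fold higher and lower than in other GABAergic nuclei, 18 and 32, became 9 and 49 under TMM, 115 and 122 at a mean of 20 CPM, 513 and 156 in the control library, 37 and 73 with members of cluster 8 only, and 10 and 10 for all 61 members against the remaining nuclei of cluster 8, of which 1 and 1 were among the 18 and 32. The counts between libraries, 155 and 493, became 371 and 212 under TMM, 1145 and 2842 at 20 CPM and 56 and 177 at 200 CPM, and the lower count became 864 with at least 8 Zfhx3 UMIs and 908 after thinning. The causes were not tested. Of the 30 named genes, 30 kept their sign under TMM, 20 CPM, per-nucleus means, doublets left out, members of cluster 8 only and mixed nuclei left out. In the control library 11 reversed on the log2 scale, Baiap3 (-0.77), Rmst (-1.61), Eps8 (-1.44), Dpyd (-1.60), Nell1 (-1.37), Gm28905 (-1.23), Cdh4 (-1.88), Pdzrn4 (-1.34), Thsd7b (-1.12), Col19a1 (0.26) and Kcnmb2 (1.02). For all 61 members against the rest of cluster 8, Rmst (-0.59), Gm28905 (-0.0021), Cdh4 (-0.0021), Scn9a (-0.027) and Nxph1 (0.39) reversed. With the members of cluster 8 alone, Rmst was at -0.21 (-0.56 to 0.11). Genes under about 5.19 CPM in the 61 members, or 110 CPM in the 4 control members, lie below what the depth can show. The alternatives on the Adarb2 limit, on cluster 8 and on RNA of another class were chosen after seeing the data.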

Other observations

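Several genes expressed from 1 parental copy (imprinted genes) were higher in the members than in the other GABAergic nuclei of the knockdown-labelled library. This group of 14 genes was chosen after its values were seen, and its median log2 ratio was 0.58 against 0.08 over all genes. The imprinted genes Dlk1, Mirg, Cdkn1c, Plagl1, Peg10, Sgce and Igf2r were also looked at and are not among the 14. The median therefore describes the chosen genes and not imprinted genes as a class. Usp29 was found in 60 of 61 members at 903 CPM (827 to 984) against 522 CPM (log2 0.79, 0.66 to 0.92), and Gnas, the stimulatory G protein alpha subunit gene, in all 61 at 721 CPM (654 to 794) against 425 CPM (0.76, 0.62 to 0.90). Nnat, encoding the small membrane protein neuronatin, was found in 35 members at 310 CPM (266 to 358) against 168 CPM (0.88, 0.65 to 1.10). Ndn and Magel2, neighbours of the Prader-Willi region, were found in 22 and 15 members at 50.2 CPM (33.6 to 72.0) and 29.4 CPM (17.1 to 47.1) against 25.03 and 13.1 CPM. Only Ndn and Magel2 of the 14 passed 2-fold, with few UMIs each, while Mest, Zdbf2, Grb10 and Peg3 had log2 ratios of 0.93, 0.59, 0.56 and 0.35. Meg3 and Rian, maternally expressed noncoding RNAs, had log2 ratios of -0.10 and 0.02, and Snrpn and Impact of 0.16 and 0.04. Within cluster 8, Usp29 and Gnas differed less, by log2 0.32 (0.14 to 0.49) and 0.43 (0.26 to 0.61).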
